A study of Mus musculus with 13 samples.

Results

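The nuclear pore complex is the channel through the nuclear envelope that carries proteins and RNA between nucleus and cytoplasm, and nucleoporins are the proteins that build it. The genes described here are the 29 nucleoporin genes among the 54232 genes of the deposited count table. They were chosen by symbol alone, as every symbol that starts with Nup and a number, together with Nupl2, Ndc1, Tpr, Pom121, Rae1, Sec13, Seh1l and Ahctf1. By place in the pore they form the Y complex (9 genes), the inner ring (5), the membrane nucleoporins (4), the central channel (3), the cytoplasmic face with Nup98 and its partner Rae1 (5), and the nuclear basket (3).

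As background, rings of Y complexes scaffold both faces of the pore, the inner ring holds the channel open and membrane nucleoporins anchor it. Central nucleoporins with phenylalanine-glycine repeats form the barrier that transport receptors cross, proteins of the cytoplasmic face remodel exported mRNA, and the basket reaches into the nucleus. Oocytes keep a large nucleus, the germinal vesicle (GV), until meiosis resumes. Its envelope and pores then come apart, the egg at metaphase II (MII) has no nuclear envelope, and pores form anew around the pronuclei after fertilisation. Fully grown oocytes make little new RNA, so most of their mRNA is a maternal store.

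The samples were 13 pools of 25 mouse oocytes each, labelled as strain C57BL6/J. Wild-type (WT) pools came at the GV stage (n = 3) and the MII stage (n = 3). Null pools, from Sirena1 -/- females, also came at the GV stage (n = 3) and the MII stage (n = 4). Sirena1 is a long noncoding RNA that is abundant in mouse oocytes. The Null allele is a deletion of its promoter, made with Cas9 in C57Bl/6 zygotes and bred on C57BL/6NCrl, so it is a constitutive allele and not one limited to the oocyte. Per the labels' protocols, the females of both genotypes were superovulated C57Bl6/J or C57BL/6NCrl mice. GV oocytes were held in M2 medium with 0.2 mM of the phosphodiesterase inhibitor IBMX, which keeps meiosis arrested, and MII eggs were taken 12 to 14 h after hCG. The labels do not give ages or say that pools came from separate females, so p-values measure the spread between these pools, which may be technical. The design asks how the loss of Sirena1 alters RNA at each stage and how RNA changes with maturation.

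Total counts ran from 30867614 to 41285507 per library. Levels are CPM, counts scaled to library size with edgeR's TMM factors, and a count of 3 corresponds to 0.0727 to 0.0972 unscaled CPM. Sirena1, listed as C86187, stood at 2912 to 3092 CPM in GV WT and 4271 to 4693 CPM in MII WT, against 23.3 to 26.4 CPM in GV Null and 35.9 to 45.0 CPM in MII Null, so each library followed its genotype label. All 10 oocyte markers examined were present in every library. Of 20 cumulus and granulosa cell markers, summed levels were 101 to 135 CPM in 11 libraries. They reached 624 CPM in GV Null replicate 2 and 261 CPM in GV Null replicate 3. The highest single marker was Hsd3b1, at 258 CPM in GV Null replicate 2, where Cyp11a1 stood at 89.3 CPM and the defining markers Inha, Foxl2 and Amh at 46.4, 2.65 and 2.20 CPM. Nr5a2 and Cyp19a1 made up most of the sum in the other 11 libraries, those outside GV Null replicates 2 and 3. In eggs, 7 to 9 of the 20 markers were at 0 in each library except MII Null replicate 4, where 2 were at 0 and Vcan and Inha stood at 6.06 and 1.37 CPM. MII Null replicate 4 lay between the stages on the first principal component, which held 64.2% of the variance, at 23.2, where MII Null replicates 1 to 3 stood at 72.3 to 87.5. Counts of calls and intervals that rest on these 3 libraries (GV Null replicates 2 and 3 and MII Null replicate 4) are given with and without them. Their part in the results that follow was not tested otherwise. For the 13 nucleoporin genes called in WT maturation, MII Null replicate 1 was the egg library of its group nearest to the GV side for 9. Replicate 4 was nearest for 3. The same count over all called genes is not given, so the weight of either library does not follow from it.

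Nearly the whole pore was represented in the RNA of these oocytes. Of the 29 genes, 28 had enough counts to be tested and 27 averaged at least 5 CPM over the 4 groups. The exceptions were Nup62cl, a relative of Nup62 with 0 to 7 counts per library, and Nup210l, a relative of the membrane protein Nup210 with 4 to 51 counts per library. Together the 29 genes took 0.530% to 0.538% of all counts in GV WT and 0.589% to 0.597% in MII WT. Their share was 0.510% to 0.554% in GV Null and 0.579% to 0.608% in MII Null, so every MII library lay above every GV library. Nup214 alone took 21.7% to 22.8% of these counts in GV WT and 26.8% to 28.4% in MII WT. In Null it took 22.6% to 25.1% in GV and 26.5% to 29.3% in MII. With scaling by library totals alone, the median log2 change of the 28 tested genes was 0.0041 in WT and -0.041 in Null. The higher summed share is therefore not a general rise of the genes. CPM values are not divided by transcript length, so levels are compared between libraries for 1 gene and not between genes. In bulk pools, fewer transcripts per cell and a larger total of other RNA cannot be told apart, and levels per oocyte are not given. The molecule is labelled polyA RNA, so higher or lower with stage refers to the polyA RNA that was read. GV oocytes and MII eggs were also collected differently. Whether capture or handling contributed to the changes with stage was not tested.

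With maturation in WT, nucleoporin transcripts moved in both directions. Of 28 tested genes, 13 passed edgeR's quasi-likelihood test (Benjamini-Hochberg adjusted p under 0.05 over all 20143 tested genes), 10 higher in MII and 3 lower. That share of 46.4% stands beside 42.7% called among all tested genes (19.9% higher, 22.8% lower). The 48.1% of the 27 nucleoporin genes of at least 5 CPM stands beside 57.4% of the 10330 genes at that level (34.4% higher, 22.9% lower). The genes called higher were Nup214, Seh1l, Pom121, Nup62, Nup88, Nup160, Nup98, Nup35, Nup54 and Ahctf1, and those called lower were Nup133, Nup43 and Sec13. The median log2 change over the 28 genes was 0.21, against 0.14 over the genes of at least 5 CPM. The libraries of the stages did not overlap for 19 of 28 nucleoporin genes, against 58.3% of all tested genes and 72.1% of those of at least 5 CPM. Scaling by library totals alone lowered the median change of all genes by 0.20 and split the nucleoporin calls into 5 higher and 5 lower, against 10 and 3 with TMM. The genes of at least 5 CPM turned as well, to 16% higher and 31.8% lower. With upper-quartile scaling 14 nucleoporin genes were called higher and 3 lower, beside 40.8% and 20.9% of genes of at least 5 CPM. Without the 3 libraries more WT calls were also made in both sets, so the shares above depend on the setting. No nucleoporin gene passed a test against a minimum change of 1.5-fold.

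**Figure D1:**
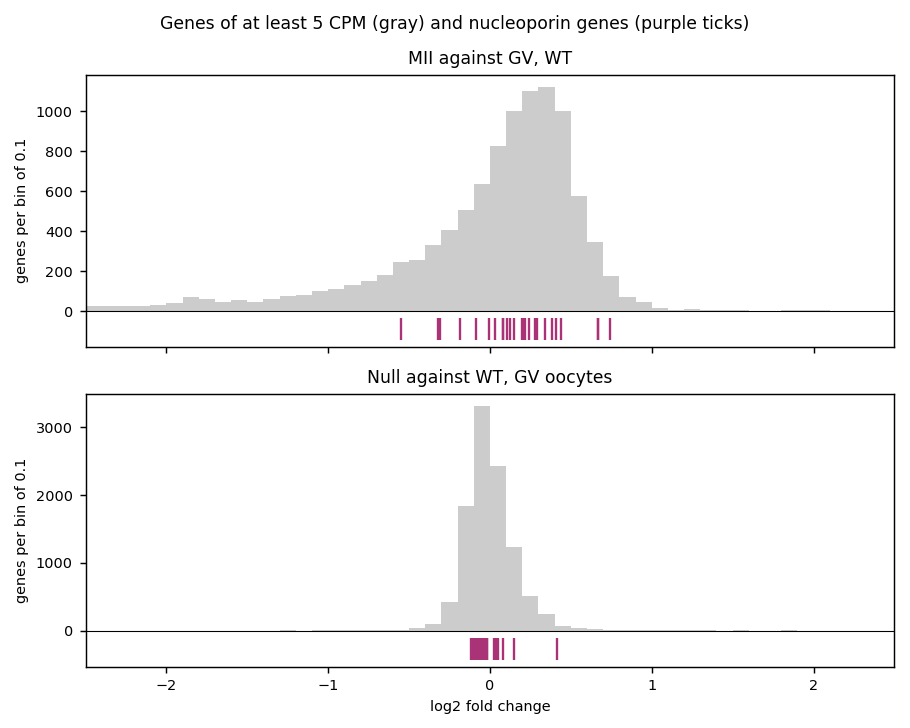
Log2 fold changes of the tested genes of at least 5 CPM (gray, genes per bin of 0.1) and of the nucleoporin genes at that level (purple ticks), for MII against GV in WT and for Null against WT in GV oocytes. With maturation the nucleoporin genes spread from -0.55 (Nup133) to 0.74 (Seh1l, with 2.55% of genes higher), and between genotypes 26 of 27 lay within 0.15 of 0, with Nupl2 at 0.41.

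The cytoplasmic face held the nucleoporin gene with the smallest p. Nup214 encodes the large repeat protein of the cytoplasmic filaments and lies on chromosome 2 from 31974408 to 32053975 (GRCm38.p6, ENSMUSG00000001855). It stood at 1109, 1062 and 1139 CPM in GV WT and at 1703, 1765 and 1787 CPM in MII WT. The stages did not overlap, and the rise was 1.59-fold (log2 0.67, SE 0.07, adjusted p = 9.51e-07 by edgeR's quasi-likelihood test). Among genes of at least 5 CPM, 4.33% had a higher log2 change. Nup214 alone took 21.7% to 22.8% of all nucleoporin counts in GV WT and 26.8% to 28.4% in MII WT.

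Nup88, the partner that Nup214 is anchored with (chromosome 11, 70943058 to 70969973, ENSMUSG00000040667), stood at 257, 248 and 253 CPM in GV WT and 345, 334 and 326 CPM in MII WT. It rose 1.33-fold without overlap (log2 0.41, SE 0.09, adjusted p = 0.00081). Nup98, a repeat protein found on both faces of the pore, went from 829, 836 and 829 CPM to 1022, 1046 and 989 CPM, a rise of 1.23-fold (log2 0.29, adjusted p = 0.0042). Counts of Nup214 per count of Nup98 in the same library are touched by no scaling. They were 1.33 ± 0.05 in GV WT and 1.72 ± 0.08 in MII WT (SD, n = 3 each). In Null they were 1.46 ± 0.12 in GV (n = 3) and 1.81 ± 0.14 in MII (n = 4). Counts of Nup214 per count of Nup88 were 4.36 ± 0.12 in GV WT and 5.23 ± 0.28 in MII WT. In Null that ratio overlapped between stages, at 4.31 to 5.70 in GV and 4.61 to 5.94 in MII. Rae1, the mRNA export factor that binds Nup98, showed no call. Its levels were 51.7 ± 2.97 and 51.4 ± 4.33 CPM, with a 95% interval of the log2 change from -0.22 to 0.21. Nupl2, which helps the export helicase at the filaments, was at 4.19 ± 1.18 and 5.49 ± 0.932 CPM and did not pass (adjusted p = 0.13).

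Among the membrane nucleoporins, Pom121 passed the test and the other 3 did not. Pom121 spans the envelope and takes part in new pore formation (chromosome 5, 135376140 to 135404841, ENSMUSG00000053293). It stood at 255, 239 and 265 CPM in GV WT and at 401, 395 and 411 CPM in MII WT. The stages were far apart, and the rise was 1.59-fold (log2 0.67, SE 0.10, adjusted p = 2.44e-05). Ndc1, a multi-pass anchor of the ring, was at 63.9 ± 4.64 and 71.0 ± 2.96 CPM, and Nup210, the lumenal ring protein, at 7.66 ± 0.773 and 9.06 ± 0.544 CPM. Their log2 changes of 0.15 and 0.24 had adjusted p-values of 0.16 and 0.161. Nup210l was at 0.558 ± 0.138 and 0.978 ± 0.706 CPM, too low for a useful estimate (log2 0.80, SE 0.60).

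Both tested genes of the central channel rose. Nup62 encodes the core repeat protein of the channel (chromosome 7, 44816088 to 44831836, ENSMUSG00000109511). It stood at 239, 235 and 239 CPM in GV WT and 336, 300.1 and 328 CPM in MII WT, a rise of 1.35-fold without overlap (log2 0.44, SE 0.07, adjusted p = 8.32e-05). Nup54, its partner in the channel complex, went from 73.0, 72.2 and 74.7 CPM to 88.3, 91.2 and 87.6 CPM, a rise of 1.21-fold (log2 0.28, SE 0.08, adjusted p = 0.00861).

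The Y complex was the group with calls in both directions. Of its 9 genes, Seh1l, Nup160 and Ahctf1 rose, Nup133, Nup43 and Sec13 fell, and Nup107, Nup85 and Nup37 did not pass the test. Seh1l encodes a small propeller subunit that also serves in nutrient signalling (chromosome 18, 67774876 to 67795487, ENSMUSG00000079614). It went from 18.1, 20.9 and 18.8 CPM in GV WT to 32.9, 30.8 and 32.8 CPM in MII WT. The rise of 1.67-fold was the largest fold among the called nucleoporin genes (log2 0.74, SE 0.10, adjusted p = 6.71e-06), and 2.55% of genes of at least 5 CPM had a higher log2 change.

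Nup133, the subunit at the end of the Y stem, showed the largest fall (chromosome 8, 123897114 to 123949265, ENSMUSG00000039509). It stood at 23.6, 24.0 and 24.8 CPM in GV WT and at 17.5, 17.1 and 14.7 CPM in MII WT. All MII libraries were below all GV libraries, at 0.682 times the GV level (log2 -0.55, SE 0.10, adjusted p = 0.000325). Among genes of at least 5 CPM, 16.7% fell by more, so the fall was within the range of many other genes. The opposite movement of Seh1l and Nup133 also showed within libraries. For each count of Nup133 there were 0.80 ± 0.06 counts of Seh1l in GV WT and 1.97 ± 0.22 in MII WT (SD, n = 3 each), with ranges of 0.757 to 0.869 and 1.80 to 2.22. The ratio was 0.77 ± 0.12 in GV Null (n = 3) and 1.85 ± 0.16 in MII Null (n = 4). This pair was chosen after its values were seen, so no test is given.

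Nup43, a propeller subunit of the Y, stood at 53.5, 57.6 and 56.0 CPM in GV WT and at 49.0, 42.0 and 42.9 CPM in MII WT. It fell to 0.802 times the GV level (log2 -0.32, SE 0.10, adjusted p = 0.0181). The call was lost without either GV WT replicate 2 or 3, or without either MII WT replicate 2 or 3. Sec13, which the pore shares with the coat of vesicles that leave the endoplasmic reticulum, went from 59.5, 58.7 and 64.8 CPM to 51.1, 46.9 and 49.4 CPM. It fell to 0.806 times the GV level (log2 -0.31, SE 0.09, adjusted p = 0.0089), a call lost without GV WT replicate 3. Nup43 overlaps Pcmt1 in the annotation, and whether counting used the strand is not stated. Pcmt1 fell from 30.0 to 16.5 CPM (log2 -0.86, adjusted p = 2.54e-06), so reads of these genes may not be fully told apart.

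Of the other Y complex genes, Nup160, the largest subunit of the Y arm, was at 201 ± 5.59 CPM in GV WT and 255 ± 8.23 CPM in MII WT (1.27-fold, adjusted p = 0.00572). Ahctf1, the protein ELYS that seeds pores on chromatin after division, was at 236 ± 9.13 and 274 ± 13.9 CPM. Its rise of 1.16-fold passed the threshold narrowly (adjusted p = 0.0456) and lost its call in 17 of 23 alternative settings. Nup107, the partner of Nup133 in the stem, was at 140.4 ± 1.09 and 143 ± 5.73 CPM, with an interval of -0.17 to 0.23 on the log2 scale. Nup85 was at 92.4 ± 4.52 and 81.5 ± 4.15 CPM (log2 -0.18, adjusted p = 0.125) and Nup37 at 37.0 ± 1.98 and 39.7 ± 0.933 CPM (log2 0.10, adjusted p = 0.388).

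In WT 1 of 5 inner ring genes and 0 of 3 basket genes passed, beside 57.4% of genes of at least 5 CPM. With upper-quartile scaling, and also without the 3 libraries, it was 2 of 5 and 2 of 3. Of the 5 inner ring genes, Nup35, a membrane-binding scaffold protein, rose from 92.4 ± 3.44 to 113 ± 5.0 CPM (1.22-fold, adjusted p = 0.00424). The large scaffold proteins Nup188, Nup93, Nup155 and Nup205 did not pass, with log2 changes of 0.20, 0.08, 0.08 and -0.09. Nup93 overlaps Rpl10-ps5 in the annotation, which fell from 72.9 CPM in GV WT to 47.6 CPM in MII WT. That log2 change was -0.62 (adjusted p = 0.0273 by edgeR's quasi-likelihood test). Reads of Nup93 and Rpl10-ps5 may not be fully told apart. In WT Nup153, which docks transport factors at the nuclear side, was at 260.5 ± 5.68 CPM in GV and 300.3 ± 14.3 CPM in MII. Its log2 change was 0.21 (adjusted p = 0.0515 by edgeR's quasi-likelihood test). Nup50, a cofactor of importin alpha, was at 182 ± 1.41 and 209.7 ± 10.8 CPM in GV WT and MII WT (adjusted p = 0.126). Tpr, the rod of the basket, was at 308 ± 8.95 and 336 ± 22.2 CPM in these groups (adjusted p = 0.288). In Null 3 of 3 basket genes passed with all libraries, beside 62.5% of genes of at least 5 CPM. The libraries of the stages overlapped for each of these genes in Null. Their median log2 change in Null was 0.28, and 0.13 without the 3 libraries that stood apart.

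**Figure D2:**
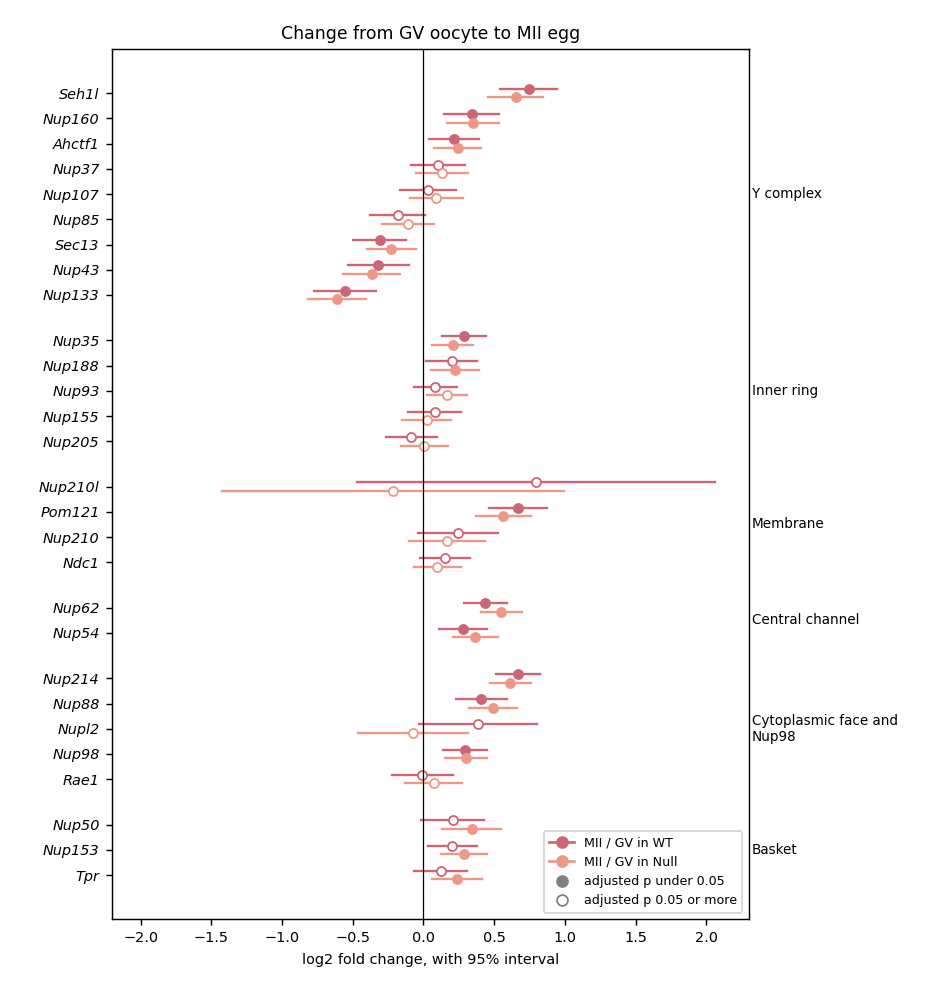
Log2 fold changes with 95% intervals from GV oocyte to MII egg for the 28 tested nucleoporin genes, by place in the pore, in WT and in Null. Filled points passed an adjusted p of 0.05. Y complex genes lie on both sides of 0, from Seh1l at 0.74 to Nup133 at -0.55 in WT.

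Maturation in Null oocytes gave 17 calls among 28 genes, 14 higher and 3 lower. That share of 60.7% stands beside 49% of all tested genes (22.1% higher, 26.9% lower) and 62.5% of genes of at least 5 CPM (39.1% higher, 23.4% lower). The Null and WT comparisons share no library, but all 13 libraries were fitted in 1 model, so their calls are not independent. Among the fits that left out 1 library, the WT calls were most, at 16, without GV Null replicate 1. The WT call of Ahctf1 was lost when any single MII Null library was left out. All 13 genes called in WT were called in Null in the same direction, and Nup153, Nup50, Tpr and Nup188 were added. The stages did not overlap for 13 of 28 genes in Null, against 46.4% of all tested genes and 57.4% of those of at least 5 CPM. Without the 3 libraries it was 17 of 28, against 73.2% and 80.3%. For the added genes the difference between the genotypes did not pass the test (adjusted p = 0.999 for each nucleoporin gene), so a difference between Null and WT is not shown. With library totals alone the Null calls were 5 higher and 6 lower, beside 18% and 35.2% of genes of at least 5 CPM. They were also fewer, 5 higher and 3 lower, without GV Null replicates 2 and 3 and MII Null replicate 4, a fit that leaves 1 GV Null library and assumes that it varies like the other groups. Of the 17 calls 7 remained, Nup214, Pom121, Seh1l, Nup62 and Nup88 higher and Nup133 and Nup43 lower, and Nup85 was gained as lower. The share called among genes of at least 5 CPM was then 44.7%. Without GV Null replicate 2 alone, the library with the highest cumulus and granulosa markers, 11 genes were called.

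The 5 genes that rose in all of these fits had similar values in Null. Nup214 stood at 1186, 1087 and 1223 CPM in GV Null and at 1822, 1831, 1885 and 1600.5 CPM in MII Null (log2 0.61, adjusted p = 1.1e-06). Pom121 stood at 238, 252 and 297 CPM and at 404, 419, 408 and 319 CPM (log2 0.56, adjusted p = 6.58e-05). In both genes MII Null replicate 4 was the lowest egg library and yet above all GV Null libraries.

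Seh1l went from 17.4, 20.4 and 17.2 CPM to 27.7, 30.3, 28.3 and 29.0 CPM (log2 0.65, adjusted p = 1.34e-05). Nup62 went from 236, 224 and 220.1 CPM to 352, 349.5, 319 and 308 CPM (log2 0.55, adjusted p = 2.82e-06), and Nup88 from 276, 223 and 214.4 CPM to 306, 334, 349 and 347 CPM (log2 0.49, adjusted p = 6.31e-05). Nup133 fell again, from 25.3, 22.4 and 23.9 CPM to 16.7, 16.04, 13.8 and 15.9 CPM (log2 -0.61, adjusted p = 4.75e-05). These 6 genes were called in both genotypes under all 22 alternatives other than the minimum fold.

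Within GV Null, replicate 1 was the highest library for 19 of the 27 nucleoporin genes of at least 5 CPM and replicate 2 the lowest for 20. Among all genes of at least 5 CPM the shares were 50.4% and 42.9%. Nup107 shows the high replicate 1, with 160.2, 121 and 116 CPM in GV Null against 140.1, 142 and 139 CPM in GV WT. Its lowest GV Null library was replicate 3 and not replicate 2. The coefficient of variation over replicates had a median over the nucleoporin genes of 3.52% in GV WT, 7.45% in GV Null, 4.77% in MII WT and 7.06% in MII Null. Over all genes of at least 5 CPM the medians were 5.71%, 8.96%, 7.36% and 10.4%.

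**Figure D3:**
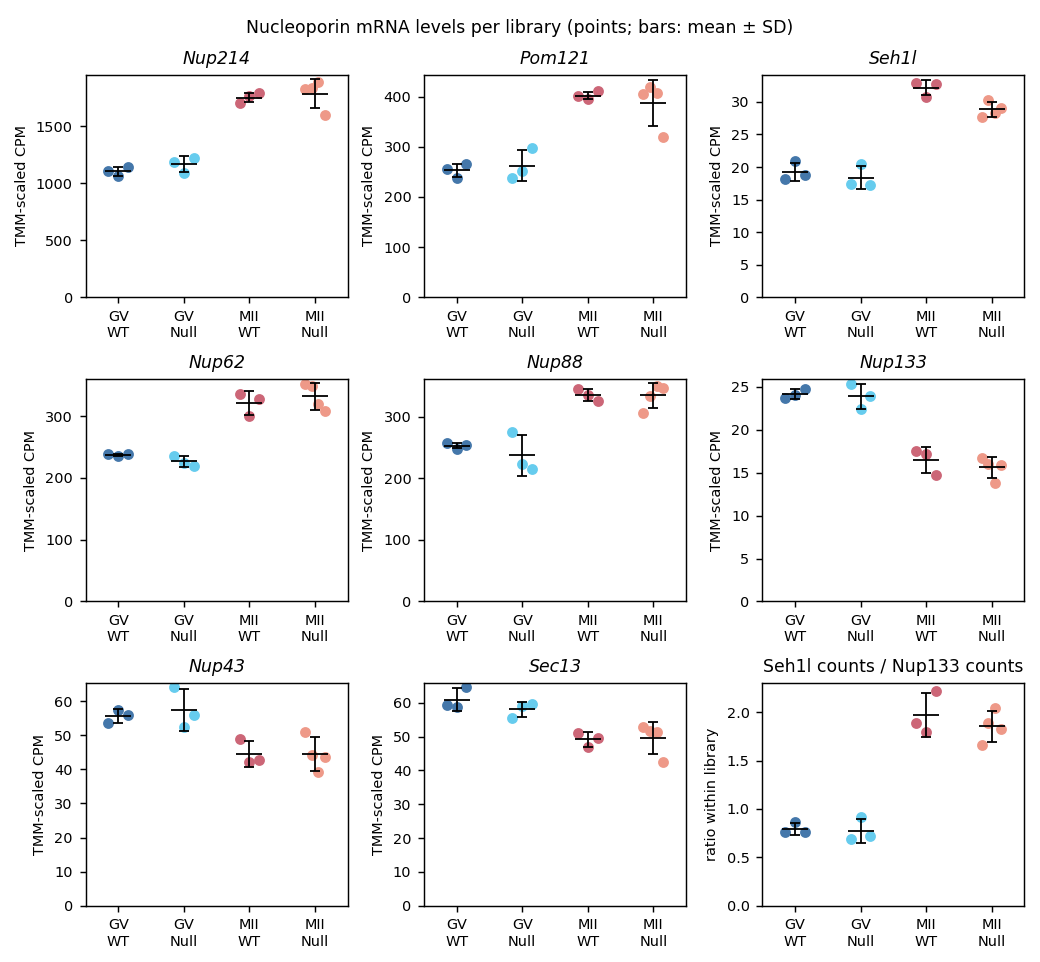
TMM-scaled CPM of 8 nucleoporin genes in each of the 13 libraries (points) with the mean and SD of each group (bars), and the ratio of Seh1l to Nup133 counts within each library. MII libraries lie above GV libraries for Nup214, Pom121, Seh1l, Nup62 and Nup88 and below them for Nup133. No nucleoporin gene was called between Null and WT at either stage. Single Null libraries stand apart, as for Pom121 at 319 CPM in MII Null replicate 4, against 395 to 411 CPM in MII WT.

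Loss of Sirena1 gave no call among the nucleoporin genes. In GV oocytes 0 of 28 genes passed edgeR's quasi-likelihood test, against 0.0546% of all tested genes, and in MII eggs 0 of 28, against 0.0546%. DESeq2 also called 0 at each stage. At an unadjusted p under 0.05 there was 1 gene in GV oocytes, Nupl2, and 0 in eggs. Libraries of the genotypes did not overlap for 3 of 28 genes in GV oocytes (Nupl2, Nup205 and Nup210), against 12.8% of all tested genes, and for 1 of 28 in eggs (Seh1l), against 6.07%. Without the 3 libraries these were 21 of 28 against 56.2% in GV oocytes, where 1 Null library is set against 3, and 3 of 28 against 10.8% in eggs.

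In GV oocytes the smallest p belonged to Nupl2. It stood at 5.11, 2.86 and 4.61 CPM in WT and at 5.94, 5.24 and 5.61 CPM in Null (log2 0.41, SE 0.20, adjusted p = 0.747). The WT libraries were spread, with replicate 2 the lowest. Nup153 and Nup205 followed, with log2 differences of -0.12 and -0.10 (adjusted p = 0.853 and 0.879). In eggs the order was Nup155 (log2 -0.16, adjusted p = 0.823), Seh1l (-0.16, 0.837) and Nup210l (-0.87, 0.871). Seh1l stood at 27.7 to 30.3 CPM in MII Null and 30.8 to 32.9 CPM in MII WT.

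The effect of genotype did not differ detectably between the stages either, with 0 of 28 genes called against 0.00496% of all tested genes and 0 at an unadjusted p under 0.05. The smallest p-values were those of Nupl2, Nup210l and Nup62, with log2 differences of -0.46, -1.01 and 0.11 (adjusted p = 0.999 each). The intervals show what size of change the data could hold. For the 25 genes of at least 10 CPM, the 95% intervals of Null against WT stayed within -0.29 (Nup153) and 0.26 (Nup43) on the log2 scale in GV oocytes, and within -0.35 (Seh1l) and 0.31 (Nup50) in eggs. The tested genes below 10 CPM had wider intervals, in GV oocytes up to 0.83 for Nupl2, 0.43 for Nup210 and 1.42 for Nup210l. For the 25 genes the outermost bounds correspond to 1.22-fold in GV oocytes and 1.27-fold in eggs. They are intervals of single genes and not a joint limit for the set. Without the 3 libraries they widened to -0.43 (Seh1l) and 0.48 (Nup43) in GV oocytes, and were -0.36 (Seh1l) and 0.32 (Rae1) in eggs. The genotype and maturation comparisons share libraries, so their values are given side by side and not set against each other.

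**Figure D4:**
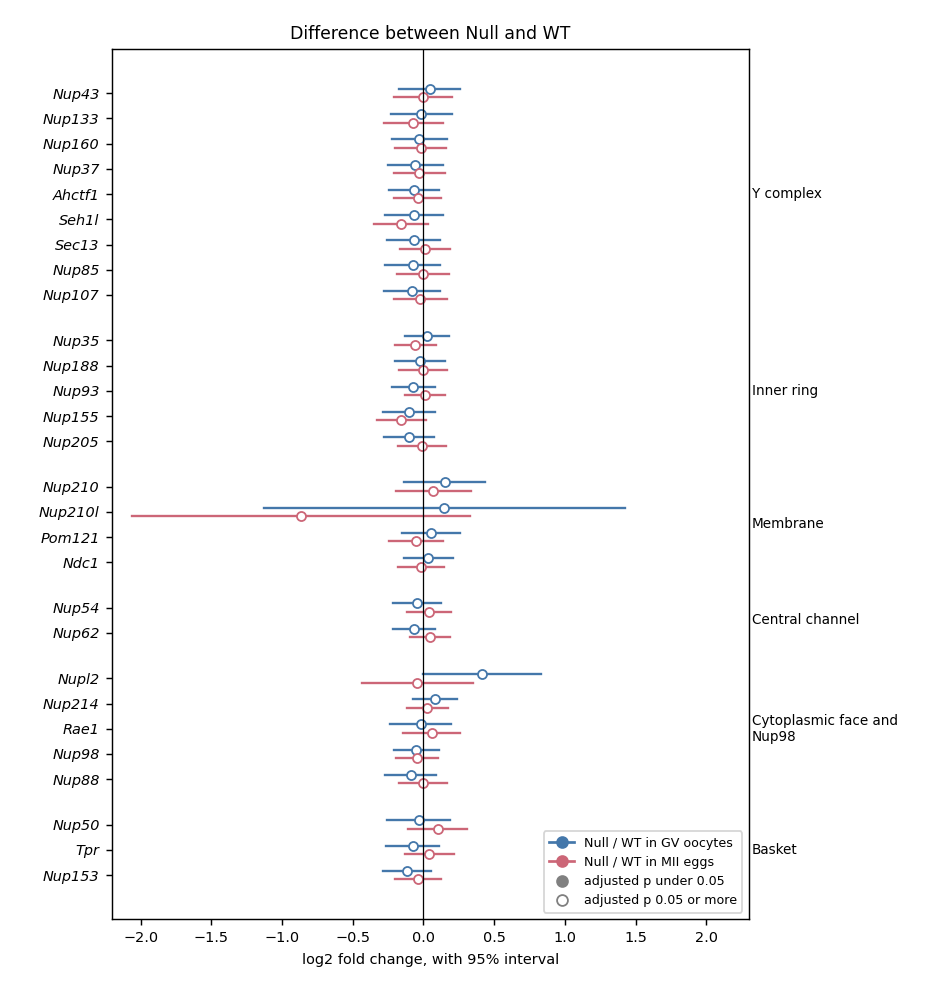
Log2 differences with 95% intervals of Null against WT for the 28 tested nucleoporin genes, in GV oocytes and in MII eggs. All points are open, since 0 passed an adjusted p of 0.05, and the widest interval is that of the barely detected Nup210l.

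Proteins that work at the pore but carry other names were followed as lists in the WT maturation comparison. All list counts stand beside the 34.4% of genes of at least 5 CPM that were higher and the 22.9% that were lower. Of 5 other pore-associated genes, 2 rose and 3 fell. Gle1, which activates the export helicase beside Nup214, rose from 92.8 ± 4.89 to 166 ± 15.2 CPM (log2 0.84, adjusted p = 1.08e-06 by edgeR's quasi-likelihood test). Ranbp2, the main filament protein of the cytoplasmic face, stood at 88.3 ± 3.04 CPM in GV WT and 49.1 ± 3.6 CPM in MII WT, a fall (log2 -0.85, adjusted p = 8.07e-06). Aaas, or ALADIN, fell as well, with 53.7 ± 4.13 and 28.6 ± 5.09 CPM (log2 -0.91, adjusted p = 0.000455). Calls for the cytoplasmic side thus went in both directions, with Nup214, Nup88, Nup98 and Gle1 higher and Ranbp2 lower in MII. Rae1 and Nupl2 were not called.

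The Ran cycle supplies direction to transport by loading Ran with GTP in the nucleus and discharging it outside. Of its 6 genes, 1 rose and 3 fell, with a median log2 change of -0.69. Ran itself fell, with 32.8 ± 2.59 CPM in GV WT and 10.4 ± 1.32 CPM in MII WT (log2 -1.66, adjusted p = 2.06e-07). Ranbp1, a cofactor of Ran, had 12.7 ± 1.39 and 5.46 ± 0.511 CPM (log2 -1.22, adjusted p = 8.34e-07). Rangap1, the activating protein for the GTPase of Ran, had 10.3 ± 1.39 and 3.26 ± 0.600 CPM (log2 -1.66, adjusted p = 1.8e-05). The falls of Ran, Ranbp1 and Rangap1 exceeded that of each nucleoporin gene in size, a description and not a test.

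Of 17 importin genes 7 rose and 3 fell (median log2 0.08). Kpna3, Ipo8 and Ipo13, which are import receptors, rose with log2 changes of 0.50, 0.53 and 0.55 (adjusted p = 6.98e-06, 0.000207 and 0.000844). Of 7 exportin genes 3 rose and 0 fell (median 0.19), namely Xpo7, Xpo6 and Cse1l with log2 changes of 0.30, 0.28 and 0.22. Of 16 mRNA export genes 6 rose and 5 fell (median -0.03). Thoc3 and Nxt1, subunits of the THO complex and of the export receptor, had log2 changes of -0.67 and -0.93, and the helicase Ddx19a 0.54. Of 15 lamina and inner nuclear membrane genes 5 rose and 3 fell (median 0.14). Among the lamins, Lmna fell (log2 -0.63, adjusted p = 5.44e-05), Lmnb2 fell (log2 -1.17, adjusted p = 0.00151) and Lmnb1 rose (log2 0.57, adjusted p = 0.00074). With library totals alone the WT counts were 3 higher and 6 lower for importins, 0 and 0 for exportins, 3 and 6 for mRNA export, 1 and 4 for the lamina list, 0 and 4 for the Ran cycle and 1 and 3 for the other pore-associated genes, so the balance of the first 4 lists depends on the scaling.

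In Null, beside 39.1% of genes of at least 5 CPM higher and 23.4% lower, the counts of genes that rose and fell were 2 and 3 for the other pore-associated genes, 1 and 3 for the Ran cycle, 8 and 4 for importins, 4 and 0 for exportins, 6 and 4 for mRNA export, and 6 and 2 for the lamina list. Without the 3 libraries (25% higher and 19.7% lower among genes of at least 5 CPM) they were, in the same order, 2 and 2, 0 and 3, 3 and 3, 2 and 0, 4 and 4, and 3 and 2. With library totals alone (18% and 35.2%) they were 2 and 3, 1 and 4, 3 and 4, 1 and 3, 3 and 6, and 3 and 5. Between the genotypes 0 genes of these 6 lists were called at either stage, with or without the 3 libraries.

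**Figure D5:**
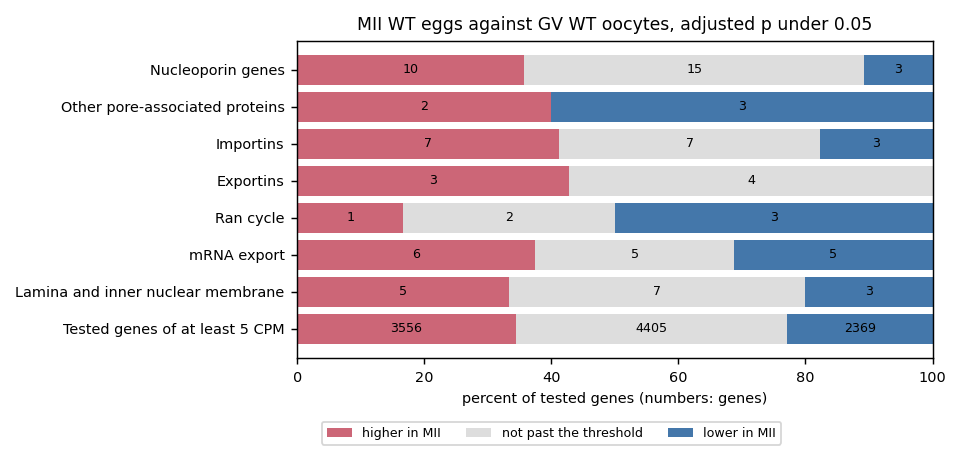
Percent of tested genes higher, lower or not past the threshold in MII WT eggs against GV WT oocytes, for the nucleoporin genes, 6 related lists and all tested genes of at least 5 CPM, with the number of genes printed in each bar. The Ran cycle list has 3 of 6 genes lower, the nucleoporin genes 3 of 28.

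To show the sequence before the start of genes that moved in opposite directions in WT, 150 bases upstream are printed for the 2 genes with the largest rise and the 2 with the largest fall among called nucleoporin genes with a promoter entry. They come from RefSeq, GRCm38.p6, 5′ to 3′ on the strand of the gene. Capitals mark matches, on either strand, to 4 short motifs. These are CCAAT, the letters of the CCAAT box, then GGGCGG, the GC box, then TATAAA, the TATA box, and CCGGAAG, a core of binding sites of ETS factors. The windows are chr2:31974300-31974449 (+ strand) for Nup214, chr5:135394547-135394696 (- strand) for Pom121, chr8:123949266-123949415 (- strand) for Nup133 and chr6:113740682-113740831 (- strand) for Sec13. RefSeq places the starts of Nup214 and Pom121 inside the gene spans given above, so these windows lie partly or wholly within those spans.
Nup214: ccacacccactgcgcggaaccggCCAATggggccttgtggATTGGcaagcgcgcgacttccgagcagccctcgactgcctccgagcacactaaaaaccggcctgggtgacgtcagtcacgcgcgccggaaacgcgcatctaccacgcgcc
Pom121: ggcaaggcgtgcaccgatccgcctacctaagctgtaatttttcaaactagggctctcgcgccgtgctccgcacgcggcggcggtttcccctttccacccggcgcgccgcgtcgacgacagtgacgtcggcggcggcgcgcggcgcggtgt
Nup133: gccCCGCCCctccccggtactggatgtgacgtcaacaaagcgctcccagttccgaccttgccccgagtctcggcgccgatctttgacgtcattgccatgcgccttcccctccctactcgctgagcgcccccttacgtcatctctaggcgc
Sec13: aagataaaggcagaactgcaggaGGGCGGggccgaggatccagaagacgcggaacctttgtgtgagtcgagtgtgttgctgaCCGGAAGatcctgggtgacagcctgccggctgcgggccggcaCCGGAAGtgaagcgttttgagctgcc

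In the stretches printed, CCAAT matched in 2 places before Nup214, and Pom121, which rose by a like fold, holds none of the 4 motifs. Nup133 and Sec13 carry GGGCGG, and Sec13 also CCGGAAG. In the 250 bases before the start, CCAAT matched in 4 of the 8 genes called higher that had an entry, 0 of the 2 called lower and 7 of the other 14, and GGGCGG in 3 of 8, 2 of 2 and 10 of 14. A match is a description of letters, not a bound site. Of the 29 nucleoporin genes, 24 had an entry in the promoter table, and Nup35, Nup43, Nup85, Nup210l and Seh1l had none. In the 250 bases before the start, CCAAT matched in 45.8% of the 24 genes against 34.5% of all 27025 entries, GGGCGG in 62.5% against 32.9% and CCGGAAG in 20.8% against 7.05%. TATAAA matched in 4.17% against 13.0%. The median GC content of these windows was 63.6% for the nucleoporin genes and 52% for all entries. The motifs do not contain each other, and in the stretches printed no match overlaps another.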

How the data were processed

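Per the labels' protocols, RNA from pools of 25 oocytes was extracted with 0.2 pg of Renilla luciferase RNA added, amplified (NuGEN Ovation V2) and read as 65 bp single-end reads. The molecule is labelled polyA RNA. The submitters' processing notes name STAR 2.5.3a, bedtools 2.26.0 and GRCm38.p6. How reads were counted, with which strand setting and with what treatment of multiple matches, is not given in the sources used here. As deposited, the table holds raw counts per gene (Ensembl release 93), not normalized by the authors, and 0 lines that are not genes, so the spike-in was not used here. Symbols were found for 54079 IDs and not for 153. Of the 29 genes, 19 overlap another RefSeq gene.

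Counts were fitted in R 4.3.3 with edgeR 4.0.16 (TMM factors, filterByExpr by group, glmQLFit with robust = TRUE, glmQLFTest, two-sided). All 13 libraries formed 1 model with 4 groups, which left 20143 tested genes and 5 comparisons. Adjusted p-values are Benjamini-Hochberg values over all tested genes, with a threshold of 0.05. Errors are SD over libraries or the SE of the fit. Reads carry no molecular identifiers, so limits at 3 counts cover counting error only. In total 23 alternatives were run, among them DESeq2 1.42.0, other scalings, other filters and leaving out libraries. Groups come from the labels.

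The nucleoporin genes and the lists were chosen with earlier results of these data known. The rule for named genes took, in each maturation comparison, the called genes with the largest fold, up to 5 per direction and 2 per place in the pore. In each genotype comparison it took the 3 with the smallest p, and in other lists up to 3 per maturation comparison. Every nucleoporin gene could be named with its level.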

Additional observations from a re-analysis of the deposited data

Results flagged for a closer look

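In MII Null, the group with 4 libraries, the gap between an extreme library and its nearest neighbour was compared with the whole range of the group, for 28 nucleoporin genes. The gap passed the 95% critical value of Dixon's test for 4 of them, where chance gives about 1 in 20 independent groups. The genes share the same 4 libraries and are not independent. The share over all tested genes is not given, so an excess among nucleoporin genes is not shown. Tpr was low in replicate 1 (286 CPM against 357 to 371 CPM in the others). Ndc1 was low in replicate 3 (64.4 CPM against 71.7 to 72.3 CPM). Pom121 (319 CPM against 404 to 419 CPM) and Sec13 (42.5 CPM against 51.2 to 52.9 CPM) were low in replicate 4, the library that lay between the stages on the first principal component.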

How the results depend on the processing

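Under the 23 alternatives, 0 nucleoporin genes were called between genotypes at either stage or in the difference between stages. In WT, called nucleoporin genes numbered 10 to 16 when 1 library was left out and 0 with a minimum change of 1.5-fold. Upper-quartile scaling gave 14 higher and 3 lower in WT, and the fit without the 3 libraries also gave more WT calls than the main fit. In Null they numbered 11 (without GV Null replicate 2) to 19 when 1 library was left out, 11 with library totals alone, 8 without the 3 libraries that stood apart and 0 with the minimum fold. Over all genes, calls for GV Null against GV WT were 11, and 644 with no filter, 24 with DESeq2, 3 with the minimum fold, 4 without the 3 libraries, and 6 to 139 (without GV Null replicate 1) leaving out 1 library. For MII Null against MII WT they were 11, and 290 with no filter, 42 with DESeq2, 2 with the minimum fold and 4 to 12 leaving out 1. For the difference they were 1, and 157 with no filter, 3 with DESeq2, 0 with RLE scaling, 0 with the minimum fold, 0 without the 3 libraries and 0 to 1 leaving out 1. For maturation, the minimum fold left 2707 of 8609 calls in WT and 3230 of 9867 in Null, and the filter of 5 CPM left 6569 in Null, where fewer genes were tested. The cause of the other shifts was not tested.

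Some changes turned sign, mostly of genes that were not called. The exceptions were Nup188, Nup35 and Cse1l in Null, called higher at 0.22, 0.21 and 0.19 with TMM. With library totals alone, chosen after seeing the data, WT changes became -0.079 (Tpr), -0.12 (Nup155), -0.12 (Nup93), -0.050 (Ndc1), -0.17 (Nup107) and -0.097 (Nup37). Null changes became -0.16 (Rae1), -0.20 (Nup155), -0.0044 (Nup188), -0.22 (Nup205), -0.019 (Nup35), -0.062 (Nup93), -0.13 (Ndc1), -0.062 (Nup210), -0.13 (Nup107), -0.094 (Nup37) and -0.033 (Cse1l). That setting shifts the median of all genes by -0.20 in WT and -0.23 in Null. With the filter of 5 CPM they became -0.021 (Nup155), -0.017 (Nup93) and -0.069 (Nup107) in WT, and -0.054 (Rae1), -0.10 (Nup155), -0.12 (Nup205), -0.026 (Ndc1) and -0.032 (Nup107) in Null. Without the 3 libraries, Nup153 in GV Null against GV WT became 0.028, and changes in Null maturation became -0.14 (Nup155), -0.019 (Nup205), -0.0093 (Ndc1), -0.17 (Nup107) and 0.43 (Nup210l). Upper-quartile scaling gave 0.053 for Rae1 in WT, and fitting only the compared groups gave -0.011 for Nup107 in WT and -0.00029 for Nup205 in Null. Leaving out 1 library gave ranges that cross 0 for Rae1 (-0.064 to 0.056) and Nup107 (-0.020 to 0.062) in WT and for Nup155 (-0.044 to 0.11), Nup205 (-0.040 to 0.038), Nup210l (-0.74 to 0.086) and Nup85 (-0.18 to 0.033) in Null. At this depth Nup62cl and Nup210l were too rare for a change to be detected.

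A pairing of the libraries by the replicate numbers in the labels was not shown, and groups of 3 or 4 libraries are too small to exclude it. Deviations from group means of same-numbered libraries correlated at -0.23 to 0.15, and not every library correlated best with its own number. With the replicate number as a block, 12 nucleoporin genes were called in WT and 15 in Null, 0 between genotypes, and 0 genes of all in the difference between stages. Over all genes the block gave 11 calls in GV, 12 in MII, 8752 in WT maturation and 9872 in Null maturation, and Nup155 in Null became -0.0019.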

Other observations

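Nup58, a channel partner of Nup62 and Nup54, is not among the 29 genes, because the table of names lists it under the older symbol Nupl1. That entry had 0 or 1 counts in each of the 13 libraries, with 1 count in GV WT replicate 2 and GV Null replicate 3 and 0 in the others. A library of this depth would show 3 counts at 0.0727 to 0.0972 CPM. Whether reads of this gene were assigned elsewhere was not tested.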
